A study of Mus musculus with 4 samples.

Results

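Epididymal fat, the visceral fat pad beside the testis of the mouse, was compared between wild-type mice fed for 12 weeks with a high fat diet (HFD, labelled 60%) and wild-type control mice on normal chow. These are 2 of the 4 arrays of the series, chosen by their labels and column headers. The other arrays came from cultured visceral adipocytes. They enter no difference, but the probe set that reads each gene was chosen on all 4 arrays. The vehicle-treated array is also used to say how brightly a gene read in adipocytes. Each diet is represented by 1 array of RNA from whole fat pads, so every difference below is between 2 RNA samples, has no replicate check and carries no p-value. The sources used here give neither strain, sex and age nor whether mice were pooled. Of 13108 genes named on the array, 12940 had a value on both fat arrays.

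White fat stores triglyceride in adipocytes, and it also holds blood vessels, fibroblasts, a mesothelial covering and resident immune cells. Long overfeeding enlarges adipocytes and is known to bring monocytes and lymphocytes into the epididymal pad, where macrophages gather around dying adipocytes and take up their lipid. Fat tissue of this kind is a mixture, so in the values below fewer cells of a type and less RNA per cell cannot be told apart, nor can more cells and more RNA per cell.

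The unit throughout is the deposited intensity, a linear brightness per probe set, with each array floored at its 10th percentile (26.03 on HFD and 25.08 on chow). Differences are log2 values, HFD minus chow. The array medians over probe sets were 314.4 on HFD and 265.7 on chow, and the highest values were 13228 and 13698. A level filter kept 7183 genes whose brighter array reached the median gene of that array (422.1 or 365.2). Of these, 1119 were higher by 2-fold or more (15.6%) and 429 lower by 2-fold or more (5.97%). The middle of the distribution was narrow and its upper tail long: 57.7% of the filtered genes lay within 1.5-fold, and the 5th and 95th percentiles of the difference were -1.07 and 2.07. At 10-fold the asymmetry was steeper, with 112 genes higher (1.56%) and 4 lower (0.0557%). At 4-fold there were 393 higher (5.47%) and 55 lower (0.766%). The threshold cut through a continuum, since 132 genes lay within 0.1 (log2) above it and 166 within 0.1 below it on the higher side, with 85 and 102 on the lower side.

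**Figure D1:**
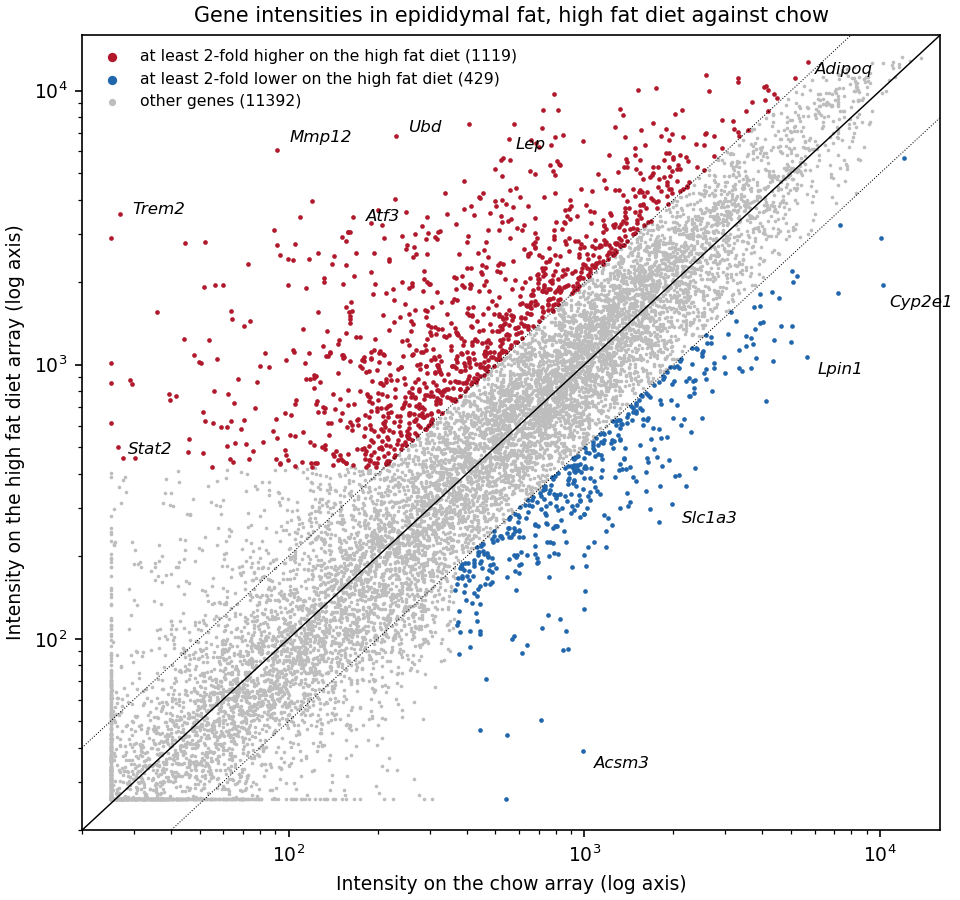
Each point is 1 of the 12940 genes, with its intensity on the HFD array (vertical, log axis) against the chow array (horizontal, log axis), both floored. The solid line marks equal values and the dotted lines a 2-fold difference. The 1119 higher genes reach much farther from the line than the 429 lower genes.

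The ratio of higher to lower calls depended on the scaling between the arrays. Higher genes made up 72.3% of the calls on the values as deposited, 56.6% when each array was centred on its median over all genes and 52.7% after quantile normalization. The median difference over all measured genes was 0.05 as deposited, -0.16 after centring and -0.10 after quantile normalization. Small differences can therefore change sign with the scaling. The all-gene median of 0.05 is also the value that any gene floored on both arrays takes. Genes that passed the level filter had a median of 0.17. The list medians below are to be read against both values.

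The tissue label was checked against defining markers. Adipoq, the adiponectin gene, read 9962 on HFD and 10456 on chow, and Fabp4, which encodes the fatty acid carrier of adipocytes, read 12789.5 on HFD and 12624 on chow. Plin1 was not analysed here, and Cidec, another lipid droplet protein gene, read 7279 on HFD and 7844 on chow. All 3 were bright on both arrays. Markers of the adjoining epididymis were dim on both: of 10 measured genes 0 reached the level filter, Lcn5 at 17.2 on HFD and 13.2 on chow and Lcn8 at 99.3 on HFD and 83.2 on chow among them. Of 12 skeletal muscle genes 2 reached the level filter, Acta1 at 1215 on HFD and 467 on chow and Actn3 at 1049 on HFD and 1879 on chow, and 2 were higher by 2-fold or more, while the muscle myosin gene Myh4 was below the floor, 1.51 on HFD and 2.83 on chow. The alpha-globin gene Hba-a1, a red blood cell marker, differed little, 9223 on HFD and 8666 on chow.

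Macrophages and their relatives gave the clearest group of differences. Of 16 measured pan-macrophage genes, 15 passed the level filter, 13 were higher by 2-fold or more and 0 lower, with a median difference of 2.73. Over all 12940 measured genes the same shares were 12.2% higher and 7.43% lower, which is the background for every list count below. Spi1, the gene of PU.1, the transcription factor that drives myeloid development, was 11.4-fold higher, 3219 on HFD and 284 on chow. Itgam, the integrin subunit CD11b of myeloid cells, was 12.5-fold higher, 782 on HFD and 62.6 on chow. Cybb, the catalytic subunit of the phagocyte oxidase, was 16.7-fold higher, 2329 on HFD and 139.7 on chow. Tyrobp and Fcer1g, which encode the adaptor chains DAP12 and FcR gamma that carry signals from many myeloid receptors, were 6.61-fold higher and 9.37-fold higher. The differences were not equal across markers that mature macrophages share. Lyz2, the macrophage lysozyme, was 3.24-fold higher, and Mertk, which clears dying cells, 1.08-fold higher. Csf1r, the receptor that macrophages need to survive, was 1.61-fold higher by its main probe set, and its probe sets ranged between 0.69 and 2.05 on the log2 scale.

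Genes associated with tissue-resident macrophages split. Folr2 was 3.81-fold higher, 3289.5 on HFD and 863 on chow, and the mannose receptor gene Mrc1 3.07-fold higher, 5249.9 on HFD and 1711 on chow. Stab1, a scavenger receptor gene, was 2.29-fold higher. In contrast Lyve1, which marks perivascular macrophages as well as lymphatic vessels, was 3.41-fold lower, 299.9 on HFD and 1022 on chow, lower by both of its probe sets. The list as a whole had 4 of 10 genes higher by 2-fold or more and 1 lower, and its median of 0.33 was -0.01 after quantile normalization. Among lipid-associated macrophage genes, 10 of 17 were higher by 2-fold or more and 0 lower. Trem2, the lipid receptor of these cells, had the largest floored difference of the filtered genes, leaving out clone and predicted names (7.04 by its main probe set and 1.10 by its other). The rank of Trem2 is not exact. Its chow value (26.8) lay near the floor, and genes at the chow floor have only lower bounds. Next in the list came the elastase gene Mmp12 (6.05), the osteopontin gene Spp1 (at least 5.09) and Itgax (4.98). Cd68 and Adgre1, which mark macrophages more broadly, differed by 3.38 and 2.73. The cathepsin gene Ctsk was 9.11-fold higher, the galectin gene Lgals3 4.43-fold higher and the tetraspanin gene Cd9 4.01-fold higher. Some members of that list that adipocytes also make in quantity differed little: Lpl read 10953 on HFD and 10684 on chow, Cd36 9735 on HFD and 9033 on chow and Apoe 10992 on HFD and 8839.5 on chow. Plin2, bright on both arrays, was 1.76-fold higher.

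The phagocyte NADPH oxidase makes superoxide in phagosomes from a membrane pair, cytosolic subunits and a Rac GTPase. Of its 7 genes 6 were higher by 2-fold or more, with a median of 3.55. The membrane partner Cyba read 8484 on HFD and 722 on chow. The cytosolic subunits Ncf1 and Ncf4 read 848 on HFD and 29.6 on chow and 1415 on HFD and 162 on chow. The leukocyte GTPase gene Rac2 was 14.4-fold higher, 3608 on HFD and 250.01 on chow, whereas its broadly expressed relative Rac1 read 6295 on HFD and 4803 on chow, a difference of 0.39. The oxidase subunits were all higher, and only Rac1 was not past 2-fold by its main probe set.

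Leukocytes also have their own actin regulators. Of 25 listed leukocyte actin and small GTPase genes 20 were higher by 2-fold or more and 0 lower (median 2.33). Vav1, an exchange factor of blood cells, read 458 on HFD and 27.5 on chow. Evl, which helps extend actin filaments, was 15.7-fold higher, Plek, a platelet and leukocyte PKC substrate, 10.9-fold higher, and the actin-capping gene Capg 9.30-fold higher. Was, the gene mutated in Wiskott-Aldrich syndrome, was 8.37-fold higher, 1308 on HFD and 156 on chow, and Coro1a, a leukocyte coronin, 8.30-fold higher, 3514 on HFD and 423 on chow. Wasf2, a more widely expressed relative of Was, differed by 0.47.

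Antibody receptors of myeloid cells signal through ITAM adaptors and kinases. In the list of Fc receptors and ITAM adaptors 17 of 21 genes were higher by 2-fold or more and 0 lower (median 2.73). Sirpa, the receptor for the CD47 signal that restrains phagocytosis, read 2551 on HFD and 126 on chow, with all of its probe sets past 4-fold. The inhibitory immunoglobulin-like receptor gene Pirb was 13.7-fold higher. Downstream, the kinase genes Syk, Btk and Lyn were 6.99-fold, 4.41-fold and 3.92-fold higher, and the adaptor gene Blnk 10.3-fold higher. The antibody receptor gene Fcgr2b was 1.40-fold higher, not past 2-fold, and Clec4n differed by 0.01. Inpp5d, the phosphatase SHIP1 that damps these signals, differed by -0.12 with its main probe set and by up to 1.92 with another.

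Toll-like receptors and their helpers recognise microbial and damage signals. Of 18 genes 12 were higher by 2-fold or more and 0 lower (median 1.27). Cd180, a Toll-like relative of B cells and macrophages, was 32.0-fold higher, 2334 on HFD and 72.9 on chow. Tlr1 was 24.7-fold higher, 1575 on HFD and 63.7 on chow. Tlr7, a sensor of single-stranded RNA, was 5.06-fold higher, Tlr2 4.16-fold higher and Unc93b1, which escorts the nucleic acid sensors to endosomes, 5.02-fold higher. Tlr4, the lipopolysaccharide receptor, read 689 on HFD and 286 on chow, and its co-receptor gene Ly96 579.5 on HFD and 164 on chow. The members not past 2-fold included the receptor gene Tlr5 (-0.11) and the downstream genes Myd88 (0.05), Irak1 (0.15) and Traf6 (-0.50), whereas the downstream kinase gene Irak4 was 2.08-fold higher.

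The letters that PU.1 binds were looked for in the promoters of the pan-macrophage genes, because Spi1 and its classical target genes were high together. In the RefSeq promoter table (assembly GRCm38.p6, 250 bases before to 50 after the start) the letters GAGGAAG, on either strand, occurred in 13.6% of 32851 promoters. They occurred in 3 of 12 promoters of the pan-macrophage genes, those of Itgam, Laptm5 and C1qc, in 17.6% of the promoters of genes higher by 2-fold or more and in 12.6% of those lower by 2-fold or more. A match is a description of letters and not a binding site. The matches are in capitals in the 2 promoters below. That of Itgam lies at chr7:128062390-128062689 (+ strand) and that of Laptm5, a lysosomal membrane protein gene of leukocytes (8.10-fold higher), at chr4:130913066-130913365 (+ strand).
Itgam: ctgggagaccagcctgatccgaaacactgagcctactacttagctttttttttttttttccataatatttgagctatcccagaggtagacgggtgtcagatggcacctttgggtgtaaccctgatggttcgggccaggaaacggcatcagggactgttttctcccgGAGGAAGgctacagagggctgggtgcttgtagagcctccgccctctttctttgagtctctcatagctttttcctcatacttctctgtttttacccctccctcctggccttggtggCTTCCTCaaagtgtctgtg
Laptm5: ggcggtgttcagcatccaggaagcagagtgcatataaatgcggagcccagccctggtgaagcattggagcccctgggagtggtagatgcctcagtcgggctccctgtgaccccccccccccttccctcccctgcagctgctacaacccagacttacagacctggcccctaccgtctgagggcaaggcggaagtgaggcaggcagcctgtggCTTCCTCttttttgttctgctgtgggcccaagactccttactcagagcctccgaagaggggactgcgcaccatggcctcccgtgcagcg

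Interferon-stimulated genes were higher as a group. They answer type I interferon and, for part of the list, interferon gamma, through STAT and IRF factors that bind a shared promoter element. Of 26 measured members 20 were higher by 2-fold or more and 1 lower, with a median of 1.94. Stat2, a subunit of the factor that carries the type I signal, read 499 on HFD and 26.5 on chow by its main probe set, with a difference of 1.64 by the other. Bst2, which tethers budding virus, was 11.1-fold higher, 2422 on HFD and 219 on chow. Igtp, a GTPase gene that responds to interferon gamma, was 10.7-fold higher, 5575 on HFD and 522 on chow, and its relative Irgm1 6.75-fold higher, 2536 on HFD and 376 on chow. Ifit3 was 9.30-fold higher, 1500.3 on HFD and 161 on chow, and Oas1a, which makes the activator of RNase L, 8.30-fold higher, 2012 on HFD and 242 on chow. Isg20, an exonuclease gene, went against the list at 528 on HFD and 1262 on chow. The genes of the pathway's regulators Irf7 and Irf9 were 4.24-fold and 2.02-fold higher.

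The element those factors bind was searched for on either strand as the letters GAAA, any 2 bases and GAAA again. It occurred in 13 of the 26 promoters found for the interferon list (50%, from 21 genes), in 3.44% of all promoters of the table, in 5.01% of the promoters of genes higher by 2-fold or more and in 2.43% of those lower by 2-fold or more. The list was made of known interferon targets, so the share describes the list and not the diet. The promoters below belong to the 4 members with a match that had the largest differences, with the match in capitals. They lie at chr10:128270248-128270547 (+ strand) for Stat2, chr8:71537423-71537722 (- strand) for Bst2, where 2 matches overlap, chr11:58199306-58199605 (+ strand) for Igtp and chr19:34583279-34583578 (+ strand) for Ifit3, which has 2 matches.
Stat2: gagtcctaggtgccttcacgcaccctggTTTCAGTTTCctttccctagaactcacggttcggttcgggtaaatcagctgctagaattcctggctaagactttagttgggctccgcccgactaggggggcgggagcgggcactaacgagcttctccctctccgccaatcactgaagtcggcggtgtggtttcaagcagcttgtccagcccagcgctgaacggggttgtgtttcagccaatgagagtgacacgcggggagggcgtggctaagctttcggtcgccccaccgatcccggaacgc
Bst2: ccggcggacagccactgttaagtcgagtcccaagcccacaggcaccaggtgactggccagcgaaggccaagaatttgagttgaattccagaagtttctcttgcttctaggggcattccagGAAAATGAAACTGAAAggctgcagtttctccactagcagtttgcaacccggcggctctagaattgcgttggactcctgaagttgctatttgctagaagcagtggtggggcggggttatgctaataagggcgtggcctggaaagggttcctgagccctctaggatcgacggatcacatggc
Igtp: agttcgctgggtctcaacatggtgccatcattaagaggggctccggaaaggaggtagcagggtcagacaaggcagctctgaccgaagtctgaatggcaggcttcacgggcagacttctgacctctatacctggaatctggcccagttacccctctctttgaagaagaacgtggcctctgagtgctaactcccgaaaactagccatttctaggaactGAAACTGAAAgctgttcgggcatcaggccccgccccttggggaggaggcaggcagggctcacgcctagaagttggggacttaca
Ifit3: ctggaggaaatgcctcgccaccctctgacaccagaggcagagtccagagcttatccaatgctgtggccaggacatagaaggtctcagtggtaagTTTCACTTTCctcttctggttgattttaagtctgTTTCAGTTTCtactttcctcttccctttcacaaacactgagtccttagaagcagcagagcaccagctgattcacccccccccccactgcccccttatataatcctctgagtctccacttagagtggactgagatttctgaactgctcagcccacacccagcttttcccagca

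Most antigen presentation genes were higher. For MHC class I, peptides are cut by the immunoproteasome, pumped by TAP and loaded with the help of tapasin. The immunoproteasome subunit genes Psmb9, Psmb8 and Psmb10 read 4069.6 on HFD and 445 on chow, 4354 on HFD and 561 on chow and 3779 on HFD and 646 on chow. The proteasome activator genes Psme2 and Psme1 were 2.91-fold and 2.74-fold higher. Tapbp, the tapasin gene, was 19.2-fold higher, 3049 on HFD and 159 on chow, and Tap2 5.05-fold higher, 1951 on HFD and 386 on chow. The classical heavy chain genes differed less, H2-K1 by 0.59 and H2-D1 by 0.57, at intensities of 9845 and 8101 on HFD. Their probe sets are of a kind that can read several transcripts, and H2 genes are near-identical copies. In all 10 of 14 genes were higher by 2-fold or more and 0 lower. All 6 measured class II genes were higher by 2-fold or more (median 3.14). H2-DMa, which exchanges peptides on class II molecules, was 12.4-fold higher, 4219 on HFD and 339 on chow, H2-DMb1 9.43-fold higher, 2541 on HFD and 269 on chow and Ifi30, which reduces disulfides of antigens, 8.21-fold higher, 6314 on HFD and 769 on chow. The dendritic cell genes were mixed. Cd83 was 10.2-fold higher, 2700.1 on HFD and 265 on chow and Batf3 3.57-fold higher, 678 on HFD and 190.0 on chow, while Flt3 (264 on HFD and 358 on chow) and Zbtb46 (347 on HFD and 339.6 on chow) were below the level filter and within 1.5-fold.

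Of 26 transcription factor genes of immune cells 14 were higher by 2-fold or more and 0 lower (median 1.05), and 9 lay within 1.5-fold. Irf8, needed for monocytes and dendritic cells, read 3288 on HFD and 189.8 on chow, and Irf5, a factor of inflammatory macrophages, 1899.8 on HFD and 114 on chow. Irf1 was 4.05-fold higher, the NF-kappaB subunit gene Nfkb1 3.08-fold higher and Relb 2.63-fold higher. Nfkbia, the inhibitor of NF-kappaB, differed by -0.41, and Rela by 0.47.

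Lysosomal hydrolase genes were higher throughout. All 40 measured members had a difference above 0, 26 of them were higher by 2-fold or more, and the median was 1.25. That list stayed positive in its median under both other scalings (1.05 after centring and 1.02 after quantile normalization). Gusb, the beta-glucuronidase gene, was 7.34-fold higher, 4984 on HFD and 679 on chow. The alpha-galactosidase gene Gla was 6.76-fold higher, 861 on HFD and 127 on chow, the asparaginyl protease gene Lgmn 6.07-fold higher, 8184 on HFD and 1347 on chow, and the cathepsin genes Ctss and Ctsz 5.85-fold higher, 10205 on HFD and 1744 on chow, and 5.82-fold higher, 7383 on HFD and 1269 on chow. Hexa, of ganglioside breakdown, was 3.79-fold higher, and Lipa, which frees cholesterol and fatty acids from lipoprotein lipid, 4.07-fold higher. At the other end Smpd1, the acid sphingomyelinase gene, differed by 0.08 and the phosphatase gene Acp5 by 0.17.

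Lysosomal membrane and proton pump genes were higher by less (median 0.90, and 0.56 after quantile normalization). Of 25 genes 12 were higher by 2-fold or more and 0 lower. Slc11a1, which moves iron and manganese out of phagosomes, was 10.7-fold higher, 5664 on HFD and 531 on chow. Of the V-ATPase subunits, Atp6v1b2 read 5832 on HFD and 1479 on chow, Atp6v0a1 3499 on HFD and 947 on chow and Atp6v1a 4176 on HFD and 1354 on chow. Probe sets of Atp6v1b2 and Atp6v0a1 ranged over more than 2 on the log2 scale, while both of Atp6v1a were past 2-fold. Lamp1 and Lamp2, the bulk proteins of the lysosomal membrane, differed by 0.51 and 0.27. The symbol family of adaptor complexes that sort cargo to endosomes and lysosomes (Ap) had 6 of 25 measured genes higher by 2-fold or more and 0 lower, and sorting nexins (Snx) 5 of 21 and 1 of 21.

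Iron recycling genes followed: 9 of 24 were higher by 2-fold or more and 1 lower (median 0.64, and 0.30 after quantile normalization). Hmox1, the enzyme that opens heme, read 2567 on HFD and 653 on chow. The biliverdin reductase genes Blvra and Blvrb, the next step, were 2.56-fold and 2.45-fold higher, and the heme transporter gene Slc48a1 2.52-fold higher. Ftl1, the ferritin light chain gene, was 2.23-fold higher, 9761 on HFD and 4385 on chow, whereas the heavy chain gene Fth1 differed by 0.18. Slc40a1, the iron exporter ferroportin, differed by -0.19, and Heph, which oxidises exported iron, was 2.16-fold lower.

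Of 27 chemokine ligand genes 14 were higher by 2-fold or more and 4 lower. The interferon gamma-induced ligand gene Cxcl9, which attracts activated T cells, was 11.9-fold higher, 6637 on HFD and 557 on chow. Ccl9 was 4.64-fold higher, 7214 on HFD and 1556 on chow and Ccl7, another monocyte ligand, 4.70-fold higher, 439.5 on HFD and 93.5 on chow. The eosinophil ligand gene Ccl11 was 3.63-fold higher, and Cxcl13, which attracts B cells, 2.42-fold higher. In the other direction Cxcl12, which retains progenitors in their niche, was 2.25-fold lower, 1123 on HFD and 2521 on chow by its main probe set, although another probe set differed by 0.99. Ccl27a was 2.41-fold lower. Among the receptors, Ccr2, which answers Ccl2 and Ccl7 on monocytes, was 4.38-fold higher, 2329 on HFD and 531 on chow, Ccr1 4.68-fold higher and Cxcr4, the Cxcl12 receptor, 2.88-fold higher. Of 19 receptor genes 10 were higher by 2-fold or more and 0 lower, with 7 passing the level filter.

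Of 28 cytokine and cytokine receptor genes 11 were higher by 2-fold or more and 1 lower (median 0.68, and 0.46 after quantile normalization). Il2rg, the common gamma chain of lymphocyte growth factor receptors, read 2554 on HFD and 169.5 on chow, Csf2rb 1081 on HFD and 152 on chow and Tnfrsf1b 2136 on HFD and 452 on chow. The antagonist genes Il18bp and Il1rn were 7.12-fold and 4.11-fold higher. Tnf was 1.92-fold higher, 435 on HFD and 226 on chow. The genes of the inflammatory cytokines Il6 and Il1b were dim on both arrays, 48.0 on HFD and 66.1 on chow and 192 on HFD and 137 on chow. Other receptor genes of the list were not past 2-fold by their main probe sets, such as Il6ra (-0.67), Il6st (-0.17), Il1r1 (-0.38) and Il4ra (0.72). Probe sets of the same gene disagreed for Il6st (up to 2.09), Il4ra (up to 2.24) and Il6ra (up to 0.25). Csf1, the macrophage growth factor, was 2.31-fold higher. In the IL-6 acute phase list 3 of 19 genes were higher by 2-fold or more and 1 lower. Saa3, the serum amyloid gene of fat and macrophages, was 2.94-fold higher, 2063 on HFD and 701 on chow, and Socs3 2.04-fold higher, while Orm1 was 1.57-fold lower. Haptoglobin, Hp, read 10016 on HFD and 5772 on chow.

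Of 20 complement genes 10 were higher by 2-fold or more and 2 lower (median 1.17). C3ar1, a receptor for a C3 fragment, was 5.33-fold higher, 3149 on HFD and 591 on chow, and the properdin gene Cfp, made by leukocytes, 4.88-fold higher, 2178 on HFD and 446 on chow. Alternative pathway factor Cfb was 3.20-fold higher, and the classical pathway genes C4b, C1s1 and C1ra were 2.67-fold, 2.85-fold and 2.62-fold higher. Cfd, the factor that adipocytes secrete as adipsin, was 2.13-fold lower, 5663 on HFD and 12082 on chow. Differences of 10-fold or more in this list were those of receptors, namely C5ar1 and the integrin subunits Itgax and Itgam.

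Lymphocyte genes were mostly below the level filter, and several that passed it did so on the HFD array alone. Of 16 T cell genes 6 passed the filter, 9 were higher by 2-fold or more and 1 lower. The adaptor gene Lat was 6.996-fold higher, 635 on HFD and 90.8 on chow, Thy1 2.91-fold higher, 1239 on HFD and 426 on chow and Cd3e, a chain of the T cell receptor complex, 2.18-fold higher, 549 on HFD and 252 on chow. Cd4 read 33.5 on HFD and 69.4 on chow and Cd8a 232 on HFD and 129 on chow, both below the filter, and Cd8b1, bright on both arrays, 1935 on HFD and 1319.9 on chow. Of 16 B cell genes 4 passed, 8 were higher by 2-fold or more and 0 lower. Jchain, which joins IgM and IgA units in plasma cells, was 11.9-fold higher, 4663 on HFD and 391 on chow, and Sdc1, also made outside plasma cells, 5.13-fold higher, 1888 on HFD and 368 on chow. Cd79a and Cd79b, the signalling chains of the B cell receptor, read 371 on HFD and 119.6 on chow and 389 on HFD and 27.9 on chow. Both were below the filter. In that list 12 genes had a difference above 0 and 4 below it, the latter including Pax5 (-0.56) and Tnfrsf17 (-0.57), also below the filter. The killer cell granzyme gene Gzma was 6.37-fold higher, 1245 on HFD and 196 on chow. In the mast cell list the chymase gene Cma1 was 5.51-fold higher, 1122 on HFD and 204 on chow and the carboxypeptidase gene Cpa3 5.17-fold higher, 1086 on HFD and 210.2 on chow, whereas the receptor gene Kit, below the filter, read 407 on HFD and 243 on chow and Gata2 331 on HFD and 488 on chow. Granulocyte genes stayed low: 2 of 14 passed the filter, and 2 were higher by 2-fold or more.

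Genes of DNA replication and mitosis were higher together. In the replication list 18 of 29 were higher by 2-fold or more and 0 lower (median 1.27). Mcm6, a subunit of the replicative helicase, read 2089.8 on HFD and 364 on chow. Pcna, the sliding clamp, was 4.17-fold higher, 6186 on HFD and 1484 on chow. Cdt1, which licenses origins, was 5.04-fold higher, the thymidine kinase gene Tk1 4.57-fold higher and the DNA ligase gene Lig1 3.07-fold higher. In the cell division list 17 of 32 were higher by 2-fold or more. The mitotic kinase gene Cdk1 read 1061 on HFD and 153 on chow, Kif23, needed for cytokinesis, 443 on HFD and 64.8 on chow, and Rrm2, which makes deoxynucleotides, 1048 on HFD and 190.4 on chow. These lists include cells of any type, so which cells carried the RNA was not tested.

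**Figure D2:**
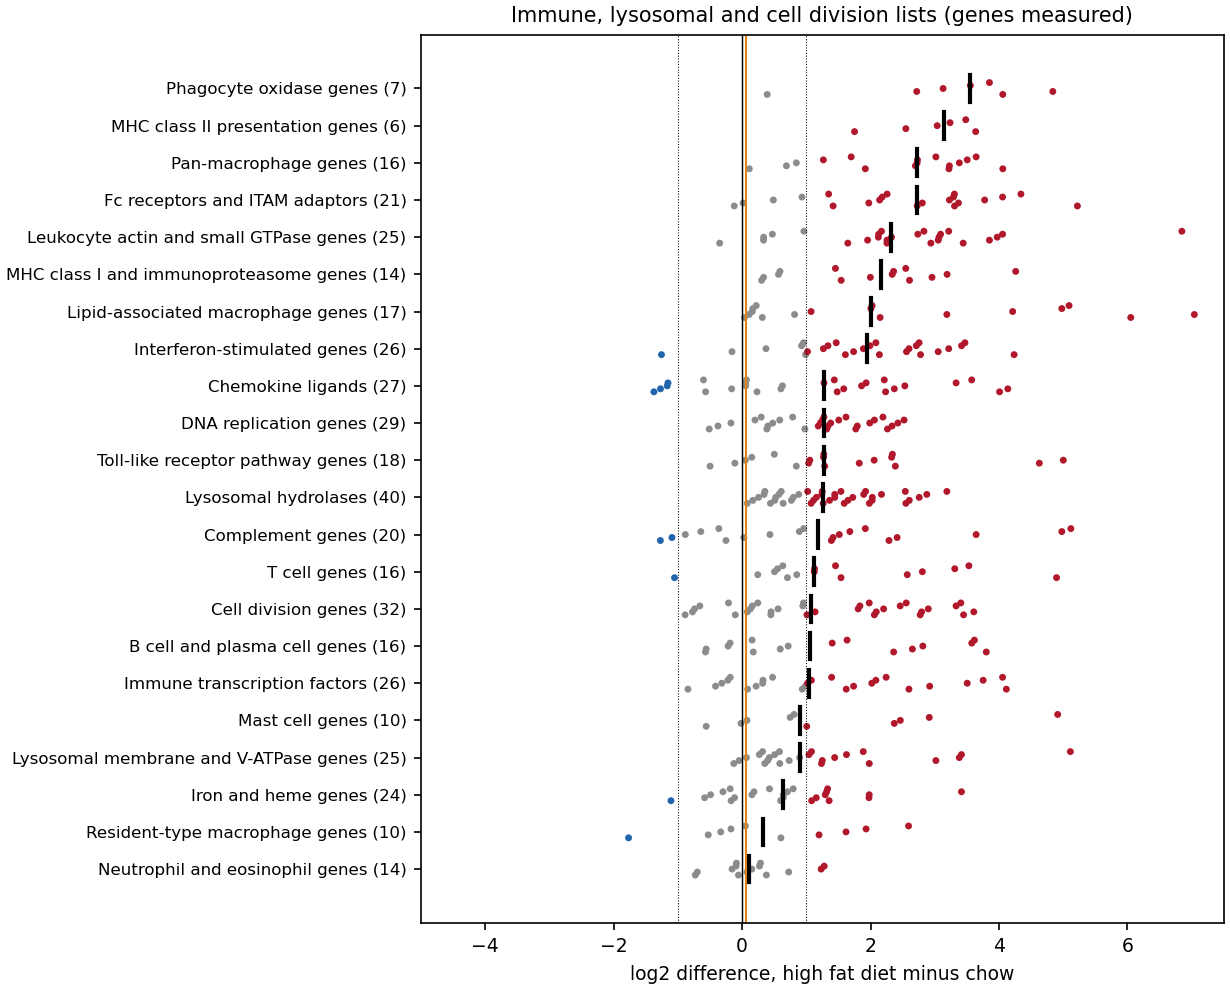
Each point is 1 measured gene of the list named at the left, with the number of genes in brackets, at its log2 difference (HFD minus chow). Red points are higher by 2-fold or more, blue lower by 2-fold or more, black bars are list medians, dotted lines mark 2-fold and the orange line the all-gene median of 0.05. The phagocyte oxidase, class II and pan-macrophage lists have the highest medians among these lists, and the medians of the resident-type macrophage and granulocyte lists change sign after quantile normalization.

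Structural genes of the connective tissue had smaller median differences than most immune lists. Of 20 collagen genes 3 were higher by 2-fold or more and 1 lower (median 0.41). Col15a1, a basement membrane zone collagen, was 2.36-fold higher, 2340.1 on HFD and 991 on chow, and Col18a1, the source of endostatin, 2.10-fold higher. Col6a3, which encodes the source of endotrophin, read 3474 on HFD and 2046 on chow, Col1a1 4496 on HFD and 2799 on chow and Col3a1 9975 on HFD and 8148 on chow. The basement membrane chains Col4a1 and Col4a2 differed by -0.21 and 0.10. Of 34 other matrix genes 5 were higher by 2-fold or more and 0 lower, and their median of 0.10 was -0.11 after centring. The fibulin gene Fbln2 was 3.44-fold higher and the leucine-rich proteoglycan gene Prelp 2.44-fold higher, whereas Thbs2 was 1.96-fold lower. The other listed genes past 2-fold were Lum, Emilin1 (2.24-fold higher), Eln and Col16a1, all higher, and Col4a3, which was lower at 70.0 on HFD and 151 on chow. Outside the list, Col20a1 had the largest difference among genes named Col, 13.3-fold higher, 1106 on HFD and 83.3 on chow by its main probe set, and was lower by another (-2.52).

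Of 30 genes of matrix proteases and their inhibitors 13 were higher by 2-fold or more and 3 lower (median 0.71, and 0.49 after quantile normalization). Mmp19 was 3.66-fold higher, 436 on HFD and 119 on chow, Mmp2 2.03-fold higher and Plaur, the urokinase receptor, 2.20-fold higher. Mmp14, which activates Mmp2, was 1.98-fold higher. Timp4, the inhibitor made by adipocytes, was 3.21-fold lower, 933 on HFD and 2992 on chow, opposite to Timp1. Among TGF-beta family genes the ligand gene Inhba was 2.20-fold higher, 857 on HFD and 389 on chow and Tgfbi, a TGF-beta-induced matrix gene, 2.92-fold higher, while Bmp6 was 3.07-fold lower, 308 on HFD and 946 on chow and Gdf10 1.90-fold lower. The type I and type II receptors Tgfbr1 and Tgfbr2 differed by 0.63 and 0.46. The fibroblast list had 6 of 20 genes higher by 2-fold or more and 0 lower. Icam1, an adhesion molecule also made by endothelium and leukocytes, was 5.15-fold higher, 1332 on HFD and 258 on chow, and Pi16, a marker of early progenitors, 2.36-fold higher, 1108 on HFD and 470.3 on chow by 1 probe set and lower by another. Pdgfra, the receptor that defines adipose progenitors, was 1.63-fold higher, and Zfp423, a preadipocyte factor gene, 1.57-fold lower.

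Vascular and covering cells were represented by lower values. Of 22 endothelial genes 7 were lower by 2-fold or more and 1 higher (median -0.73). Sox17, an arterial factor gene, was 3.51-fold lower, 603 on HFD and 2114 on chow. Flt1, a VEGF receptor gene, was 2.58-fold lower, 333 on HFD and 857 on chow, Ptprb 2.20-fold lower and the endothelial nitric oxide synthase gene Nos3 2.06-fold lower, 621 on HFD and 1277 on chow. Aplnr, the apelin receptor, went the other way at 505 on HFD and 221 on chow. In the smooth muscle and pericyte list 6 of 16 were lower by 2-fold or more and 0 higher, including the pericyte potassium channel gene Kcnj8 (2.16-fold lower). The contractile genes Tagln and Acta2 read 912 on HFD and 1624 on chow and 3903 on HFD and 3197 on chow. In the mesothelial list 7 of 12 were lower by 2-fold or more and 0 higher (median -1.29). Rspo1, a Wnt amplifier, was 2.74-fold lower, 319 on HFD and 876 on chow, and Gpm6a 2.44-fold lower, 313 on HFD and 763 on chow. All 12 mesothelial genes had values below those on chow. Schwann cell and nerve genes were mostly below the filter (4 of 15 passed), with Sox10 at 640.0 on HFD and 559 on chow.

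Adipocyte hormone and identity genes were split between large and small differences. Of 24 adipocyte genes 1 was higher by 2-fold or more and 4 lower (median -0.15), and 13 lay within 1.5-fold. The higher one was Lep, the leptin gene, at 5517 on HFD and 808 on chow. Nrg4, a secreted growth factor of fat, was 3.77-fold lower, 388 on HFD and 1464 on chow, and Retn, the resistin gene, 3.48-fold lower, 2889 on HFD and 10055 on chow. The insulin-responsive glucose transporter gene Slc2a4 was below the level filter at 349 on HFD and 245 on chow. Pparg, the master factor of adipocytes, was 1.83-fold lower, 1827 on HFD and 3335 on chow, Rbp4, the retinol carrier, 1.67-fold lower, and Adrb3, the adrenergic receptor of adipocytes, 1.55-fold lower. Cebpa, the partner factor of Pparg, read 5475 on HFD and 5366 on chow. Adipocyte genes near the top of the array, such as Fabp4, Car3 (13178 on HFD and 13698 on chow) and Scd1 (11191 on HFD and 11269 on chow), differed by 0.02, -0.06 and -0.01, and the highest value on the chow array was 13698. Whether such genes could have read higher was not tested. Sncg, a synuclein of obese fat, was 2.86-fold higher, 5728 on HFD and 1999.5 on chow, while the imprinted gene Peg3 was 3.58-fold lower, 952 on HFD and 3411 on chow.

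Transcription factors of adipogenesis were lower as a list: 6 of 24 were lower by 2-fold or more and 2 higher (median -0.44). Cebpd, an early adipogenic factor, was 2.79-fold lower, 1064 on HFD and 2967 on chow. Ebf2 and Ebf3 were 2.10-fold and 2.12-fold lower, Nr2f2 was 2.40-fold lower and Foxo1 1.93-fold lower. Of the 2 higher genes, Id2, which blocks basic helix-loop-helix factors, was 10.0-fold higher, 1968 on HFD and 196 on chow, and Gata3, below the level filter, read 146 on HFD and 44.4 on chow.

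Insulin signalling genes pointed both ways. Grb14, an adaptor that blocks the insulin receptor kinase, was 5.52-fold higher, 781 on HFD and 141 on chow. Ptpn1, the phosphatase PTP1B that acts on the insulin receptor, was 2.01-fold higher, 2727 on HFD and 1354 on chow. Grb10, the relative of Grb14, was 2.53-fold lower, 869.8 on HFD and 2202 on chow by its main probe set. Pik3r1, the regulatory subunit of PI 3-kinase, was 1.91-fold lower, Akt2 1.24-fold lower and Mtor 1.67-fold lower. Socs2 was 2.12-fold lower by both probe sets. Over 28 genes 6 were higher by 2-fold or more and 5 lower. Irs1, the receptor substrate, had the lowest difference of the list at -1.96.

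Genes that govern fat breakdown differed by step. The antilipolytic adenosine receptor gene Adora1 was 2.85-fold lower, 377 on HFD and 1075 on chow. Among the lipases, Pnpla2 (ATGL) read 7662 on HFD and 9259 on chow, Lipe (hormone-sensitive lipase) 3804 on HFD and 4349 on chow and Mgll 8459 on HFD and 7559.5 on chow, all within 1.5-fold. The carboxylesterase genes Ces1f and Ces1d were 5.601-fold lower, 736 on HFD and 4123 on chow, and 2.26-fold lower, 3239.7 on HFD and 7308 on chow. The genes of 2 inhibitors of ATGL differed the other way, Hilpda 2.67-fold higher and G0s2 1.46-fold higher. The core lipases were thus near equality, while Adora1 and the esterase genes were past 2-fold. Plin3, a droplet coat gene, was 1.64-fold higher and Plin5, which links droplets to mitochondria, 2.36-fold lower.

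Of 20 triglyceride synthesis genes 2 were higher by 2-fold or more and 4 lower. Gpam, the mitochondrial glycerol phosphate acyltransferase, had a difference of -1.98, although another of its probe sets differed by -0.15. Lpin1, the lipin that makes diacylglycerol, was 5.32-fold lower, 1067 on HFD and 5679 on chow, lower by both probe sets, whereas its relative Lpin2 was 2.88-fold higher, 1074 on HFD and 372 on chow by the main probe set and lower by another. Mogat1, a monoacylglycerol acyltransferase gene, was 6.16-fold lower, 122 on HFD and 754 on chow. Dgat2, which completes triglyceride, was 1.61-fold higher, opposite to Dgat1 (2.49-fold lower). The acyl-CoA synthetase genes Acsl1 and Acsl5 were 1.42-fold lower and 2.30-fold higher. Of these pairs, the higher value of Lpin2 changed sign with the median over probe sets, and Dgat2 and Acsl1 were not past 2-fold.

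Fatty acid synthesis genes were near equality at their centre. Fasn read 4405 on HFD and 5251 on chow, Acly 2662 on HFD and 1926 on chow and Srebf1 2221 on HFD and 1903 on chow. Pgd, a source of NADPH in the pentose phosphate pathway, was 2.65-fold higher, 4761 on HFD and 1793 on chow, the desaturase-like gene Fads3 2.34-fold higher, 3986 on HFD and 1702 on chow and Elovl1, which elongates very long chains, 2.15-fold higher. Mlxipl, the gene of ChREBP, was 1.76-fold lower. The list median of 0.13 was -0.08 after centring. In cholesterol synthesis 9 of 23 genes were higher by 2-fold or more and 4 lower, and 17 had a difference above 0. The regulator gene Srebf2 was 2.39-fold higher, 758 on HFD and 317 on chow. Fdft1, which makes squalene, went against most of the list. It was 2.48-fold lower, 531 on HFD and 1319 on chow by its main probe set and lower by its other. Pmvk was 2.30-fold lower. Soat1, which esterifies cholesterol for storage in macrophages, was 4.04-fold higher, 1425 on HFD and 353 on chow. The lipoprotein gene Apoc1 was 4.15-fold lower, 1209 on HFD and 5016 on chow.

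Mitochondrial lists differed in their counts. The respiratory chain was near equality, with 1 of 44 genes higher by 2-fold or more, 0 lower and 43 within 1.5-fold. Its median of 0.02 was -0.19 after centring and -0.30 after quantile normalization. The exception was Atp5g1, 1 of several genes for the same ATP synthase subunit, 2.01-fold higher. Of 23 tricarboxylic acid cycle genes 0 were higher by 2-fold or more and 0 lower, and Pdha1, a pyruvate dehydrogenase subunit gene, had the lowest difference at -0.77. All 48 measured genes named Mrpl, of the large mitochondrial ribosome subunit, were within 2-fold. Branched-chain amino acid and propionate breakdown stood out from these, with 7 of 27 genes lower by 2-fold or more and 0 higher (median -0.57). Aldh6a1, of the valine pathway, was 2.30-fold lower, 2192 on HFD and 5041 on chow, Hsd17b10, of the isoleucine pathway, 2.91-fold lower, 1253 on HFD and 3646 on chow, and Mmut, the methylmalonyl-CoA mutase gene, 2.01-fold lower, 1282 on HFD and 2583 on chow. Ivd, of the leucine pathway, was 1.90-fold lower, and the propionyl-CoA carboxylase genes Pcca and Pccb 1.44-fold and 1.69-fold lower. Prodh, the first enzyme of proline breakdown, was 5.50-fold lower, 184 on HFD and 1014 on chow, and Tst, a mitochondrial sulfurtransferase gene, 5.601-fold lower, 298 on HFD and 1669 on chow.

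Of 38 mitochondrial and peroxisomal fatty acid oxidation genes 3 were higher by 2-fold or more and 7 lower (median -0.21). The trifunctional protein genes Hadha and Hadhb differed by 0.11 and 0.23, and Acadm, Acadl and Acadvl by -0.10, -0.03 and -0.19. The carnitine steps after Cpt1a were lower: Slc25a20, the carrier, was 1.58-fold lower, Cpt2 1.63-fold lower and Crat 2.07-fold lower, 1149 on HFD and 2383 on chow. Ehhadh, the bifunctional enzyme of peroxisomes, was 6.14-fold lower, 359.5 on HFD and 2206 on chow. Pex11a, which divides peroxisomes, was 2.05-fold lower, 728 on HFD and 1491 on chow. Among all symbol families with at least 12 genes past the level filter, the peroxins (Pex) had the lowest median, -0.56, over 14 measured genes, of which 0 were higher by 2-fold or more and 2 lower. The second of these was Pex3, 2.11-fold lower, 775 on HFD and 1639 on chow. Cat, the catalase of peroxisomes, was 1.62-fold lower. Decr2, another peroxisomal enzyme gene, was 3.36-fold higher, 474 on HFD and 141 on chow, and the transporter gene Abcd2 2.03-fold higher. The coactivator gene Ppargc1b was 2.01-fold lower, 498 on HFD and 1002 on chow.

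Thermogenic markers gave no common direction. Ucp1, the uncoupling protein of brown fat, read 391 on HFD and 20.1 on chow, at least 15.6-fold higher (chow lay at the floor), yet below the level filter. Cidea and Dio2 read 80.2 on HFD and 40.3 on chow and 56.4 on HFD and 89.3 on chow, also below the filter. Cidea thus lay in the direction of Ucp1 and Dio2 in the other. Ucp2, which leukocytes express, was 3.51-fold higher, 6948 on HFD and 1980.0 on chow, and Slc6a8, the creatine transporter, 2.79-fold higher, 1866 on HFD and 669 on chow. Kcnk3, a potassium channel gene of brown adipocytes, was 3.98-fold lower, 204 on HFD and 814 on chow.

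Of 23 glycolysis genes 2 were higher by 2-fold or more and 4 lower. Pkm, pyruvate kinase of non-liver tissue, was 2.83-fold higher, 5631 on HFD and 1989.6 on chow, and Pfkp, a phosphofructokinase isoform, 2.32-fold higher, 1909.5 on HFD and 824 on chow. Eno1 was 1.91-fold higher and Tpi1 1.62-fold higher. Pdk2, which switches off pyruvate dehydrogenase, was 3.70-fold lower, 443 on HFD and 1639 on chow, and Pfkfb1, which sets the level of the phosphofructokinase activator, 2.40-fold lower, 406 on HFD and 975 on chow. Muscle-type Pfkm was 1.65-fold lower, opposite to Pfkp. The list median of 0.12 was -0.09 after centring. In the hypoxia list 0 of 20 genes were higher by 2-fold or more and 3 lower, and 13 lay within 1.5-fold (median -0.27). Hif1a was 1.74-fold higher by its main probe set, while Bnip3 and Ddit4, 2 of its target genes, were 1.58-fold and 2.17-fold lower.

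Part of the immediate early genes were higher. Egr2, a factor of macrophages and myelinating cells, was 19.5-fold higher, 1446 on HFD and 74.1 on chow. Fos was 11.8-fold higher, 3467 on HFD and 295 on chow, Atf3, induced by stress, 20.9-fold higher, 3455 on HFD and 165 on chow, Egr1 3.50-fold higher, 1714 on HFD and 489 on chow and Junb 3.50-fold higher, 696 on HFD and 199 on chow. Others of the list were not past 2-fold, such as Dusp1 (0.35), Nr4a1 (0.21) and Ier3 (0.17). Maff, a small Maf factor, was 2.17-fold lower. Over 30 genes 6 were higher by 2-fold or more and 3 lower. In the clock list 5 of 20 were lower by 2-fold or more and 0 higher (median -0.48); Rora was 1.93-fold lower and Clock 1.44-fold lower. The sources used here do not give the hour at which the tissue was taken.

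Of 28 endoplasmic reticulum and amino acid stress genes 6 were higher by 2-fold or more and 2 lower (median 0.31). Sdf2l1, a chaperone complex member, was 5.84-fold higher, 1133 on HFD and 194 on chow, the disulfide isomerase gene Pdia3 2.53-fold higher, 5192 on HFD and 2055 on chow, Edem1, which hands misfolded glycoproteins to degradation, 2.54-fold higher, and Hspa5 (BiP) 1.74-fold higher. The amino acid response genes Asns and Chac1 were the 2 lower ones, 3.76-fold lower, 971 on HFD and 3654 on chow, and 2.46-fold lower, 536 on HFD and 1317 on chow. Xbp1 and Atf4 differed by 0.02 and 0.21. The list median was below those of the housekeeping (0.42) and ribosomal protein genes (0.50). Of 19 cytosolic heat shock genes 2 were higher by 2-fold or more (10.5%, beside 12.2% of all measured genes) and 0 lower. Of the 19, 13 lay within 1.5-fold, and the median was 0.43. Hsp90aa1 was 4.52-fold higher, 2308 on HFD and 510.1 on chow, and the small heat shock gene Cryab 2.60-fold higher.

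Detoxification genes were lower in a set of enzymes better known from liver. Cyp2e1, which oxidises small organic molecules, was 5.23-fold lower, 1962 on HFD and 10259 on chow. Cyp2f2 was 6.71-fold lower, 95.1 on HFD and 638 on chow and Cyp2d22 2.63-fold lower, 602 on HFD and 1585 on chow. In the cytochrome P450 list 7 of 23 were lower by 2-fold or more and 2 higher; Cyp27a1, which makes 27-hydroxycholesterol, was 2.21-fold higher. Of 37 antioxidant and glutathione genes 3 were higher by 2-fold or more and 3 lower. The thioredoxin reductase gene Txnrd1 was 2.43-fold higher, 1606 on HFD and 659.7 on chow, Prdx1 1.91-fold higher and Sod2 1.69-fold higher, while Sod1 was 1.42-fold lower and Gstm5 2.22-fold lower, 693 on HFD and 1538 on chow. Hsd11b1, which regenerates active glucocorticoid, was 3.63-fold lower, 1387 on HFD and 5031 on chow, and Fkbp5, a glucocorticoid target gene, 2.66-fold lower, 966 on HFD and 2571 on chow by its main probe set. Nr3c1, the glucocorticoid receptor gene, differed by -0.03. Akr1b8, an aldo-keto reductase gene, was 5.603-fold higher, 2246 on HFD and 401 on chow. In the sphingolipid list 5 of 19 genes were higher by 2-fold or more and 2 lower. The list median was 0.38, and 0.15 after quantile normalization, and the lowest difference was -2.46. Cerk, ceramide kinase, was 6.49-fold higher, 1854 on HFD and 286 on chow, and the first enzyme's subunit gene Sptlc2 2.05-fold higher.

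**Figure D3:**
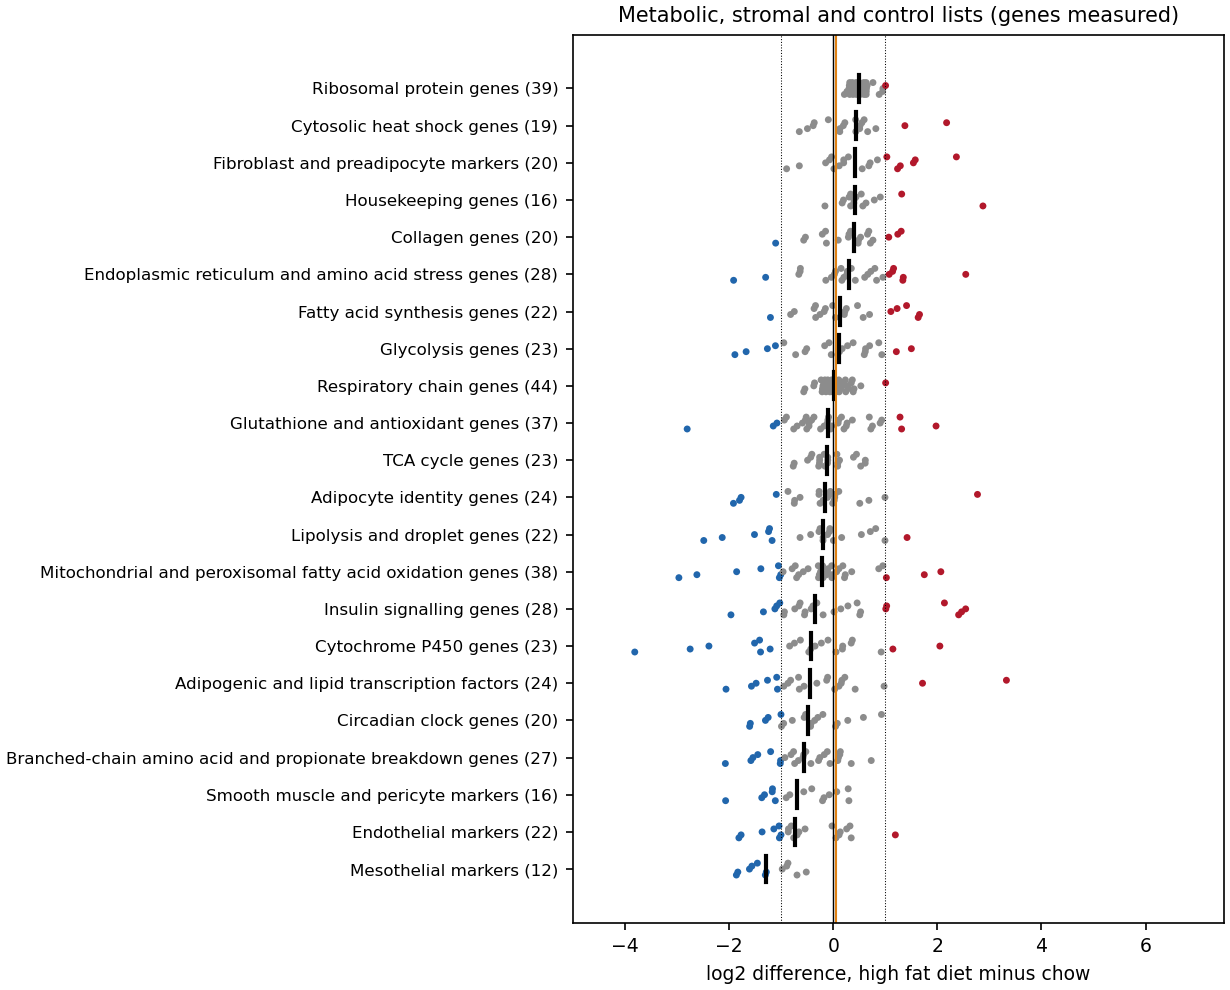
The same plot as for the immune lists, for metabolic, stromal and control lists. Medians lie between those of the ribosomal protein list at the top (0.50) and the mesothelial list at the bottom (-1.29). The medians of the respiratory chain, glycolysis and fatty acid synthesis lists are positive as deposited and negative after centring or quantile normalization.

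Control genes show how far a difference can go for genes taken as stable. Ribosomal protein genes had 1 of 39 higher by 2-fold or more and 0 lower, and a median of 0.50, which was 0.29 after centring and 0.19 after quantile normalization. Housekeeping genes had a median of 0.42, with Actb at 12003 on HFD and 7756 on chow, Ppia at 10356 on HFD and 8380.0 on chow and Tbp at 649 on HFD and 514 on chow. Actb, which is abundant in leukocytes, differed by 0.63, against -0.87 for another of its probe sets. Gusb, often used as a control, was past 4-fold as given before, and Tfrc was 2.49-fold higher by its main probe set and differed by -0.20 by another.

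The 30 genes with the highest differences included, besides those above, Glipr1 (5.75), the histidase gene Hal (5.45), Lat2 (5.22), C5ar1 (5.12), the peptide transporter gene Slc15a3 (5.11), Adam8 (5.05), the mast cell protease gene Mcpt4 (4.91) and Il7r (4.90). Ubd, a ubiquitin-like modifier induced by interferon gamma and TNF, was 29.6-fold higher, 6819 on HFD and 230.0 on chow. Evi2b, a leukocyte membrane protein gene, was 32.3-fold higher, 1946 on HFD and 60.2 on chow. Ltb, the lymphotoxin subunit that shapes lymphoid tissue, was 28.1-fold higher, 1242 on HFD and 44.3 on chow. Slc37a2, a sugar phosphate transporter of macrophages, was 26.8-fold higher, 2509.6 on HFD and 93.5 on chow. Cd72, a B cell co-receptor also found on macrophages, was 24.5-fold higher, 2439 on HFD and 99.6 on chow, and Kcnn4, a calcium-activated potassium channel gene of leukocytes, 23.3-fold higher, 2417 on HFD and 104 on chow, by both probe sets. Zbp1, a sensor of Z-form nucleic acid, was 22.9-fold higher, 1232 on HFD and 53.9 on chow, and Hcls1, a cortactin relative of blood cells, 22.8-fold higher, 1469 on HFD and 64.5 on chow. Ifi202b was 26.2-fold higher, 2759 on HFD and 105 on chow and Pira2 at least 24.4-fold higher, both read by probe sets that can detect related genes. Adssl1, an adenylosuccinate synthase gene, was 22.7-fold higher, 1089 on HFD and 48.1 on chow.

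The genes with the lowest differences included Acsm3, a medium-chain acyl-CoA synthetase gene (-4.68), Cyp2b10 (-3.81), Serpina3k (-3.27), the albumin gene Alb (-3.22), Eci3 (-2.96), Gsta4 (-2.80), Slc44a3 (-2.78) and Vegfa (-2.40). Serpina3k and Vegfa differed by only -0.41 and -0.46 by their other probe sets. The other leading genes were varied in function. B3galt2, a galactosyltransferase gene, was 6.72-fold lower, 266 on HFD and 1786 on chow, and Slc1a3, a glutamate transporter gene, 6.35-fold lower, 311 on HFD and 1973 on chow. Both probe sets of each were past 4-fold. Usp2, a deubiquitinase gene under clock control, was 6.56-fold lower, 109 on HFD and 717 on chow. Ppp1r1a, an inhibitor of protein phosphatase 1 that protein kinase A activates, was 5.63-fold lower, 419 on HFD and 2358 on chow. Dpyd, which starts pyrimidine breakdown, was 5.16-fold lower, 392 on HFD and 2023 on chow. Arl4a was 6.56-fold lower, 71.0 on HFD and 466 on chow, and the phosphatase-like gene Styxl1 5.69-fold lower, 102 on HFD and 580.5 on chow. Rab40b was 5.70-fold lower, 99.8 on HFD and 569 on chow by its main probe set and differed by -0.51 on the log2 scale by its other.

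**Figure D4:**
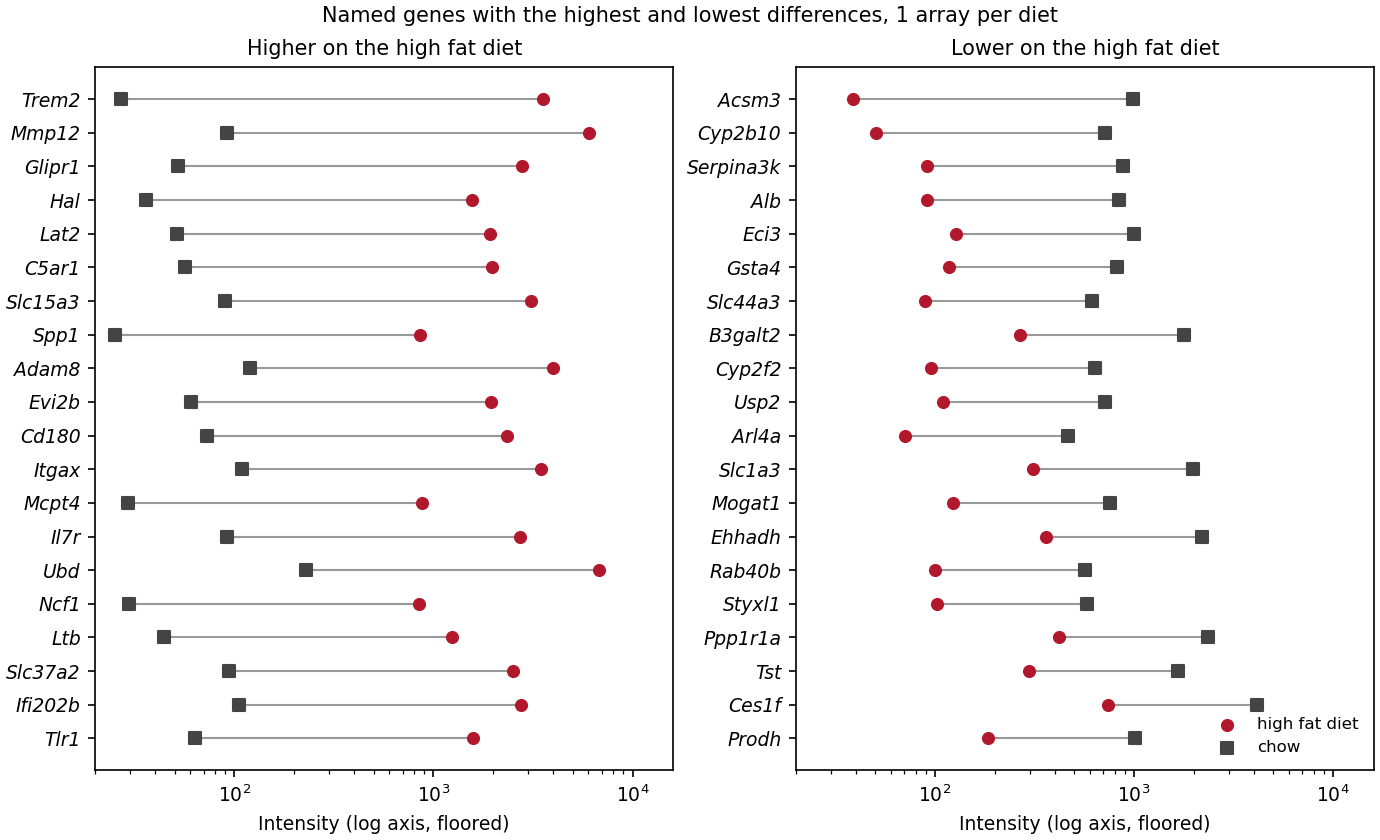
Intensities (horizontal, log axis, floored) of the named genes with the highest differences (left) and the lowest (right), with the high fat diet as red circles and chow as grey squares. The chow squares of the higher genes lie at or below 230.0 (Ubd), and the chow squares of the lower genes run from 465.9 (Arl4a) upward.

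Genes were also grouped by the letters of their symbols, which involves no choice of members. Of 75 measured genes named Cd, 30 were higher by 2-fold or more and 4 lower (median 0.56). Cd84, a SLAM family receptor, was 13.1-fold higher, the inhibitory receptor gene Cd300a 19.4-fold higher, Cd52 13.04-fold higher and Cd44, the hyaluronan receptor, 6.78-fold higher. Of 66 genes named Il, 18 were higher and 1 lower, and 22 passed the level filter. The median over all 66 was 0.05, the value of a gene floored on both arrays. Of 20 Arhgap genes, which switch off small GTPases, 7 were higher and 0 lower. Proteasome lid and base genes (Psmd) were 4 of 14 higher and 0 lower. Of 268 solute carrier genes (Slc) 29 were higher and 21 lower. Zinc finger genes (Zfp) had 5 of 177 higher (2.82%) and 16 lower (9.04%), beside 12.2% and 7.43% of all measured genes. Their share of higher calls was below that of all genes, and their share of lower calls was near it.

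The vehicle-treated adipocyte array gave a ranking of genes by their level in cultured adipocytes. Genes that also had a value on that array were split by it into groups of 4301, 4301 and 4302. The share higher by 2-fold or more on HFD was 12.4%, 11.6% and 12.4% from the dimmest to the brightest group. The share lower by 2-fold or more was 11.2%, 9.09% and 2.05%. Of the genes that passed the level filter, which keeps dim genes only where 1 array is high, 51.7%, 14.5% and 12.2% were higher and 16.2%, 10.6% and 2.03% lower. The remaining counts are over filtered genes. Of the 112 genes higher by 10-fold or more, 77 were in the dimmest group, 15 in the middle and 20 in the brightest. The filter shaped that split, since only 474 of the 4301 genes of the dimmest group passed it. It is therefore not read as a trait of genes dim in adipocytes. Of the 429 lower genes, 77 were in the dimmest group, 267 in the middle and 85 in the brightest. Few of the genes brightest in cultured adipocytes were 2-fold lower in the fat pad.

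**Figure D5:**
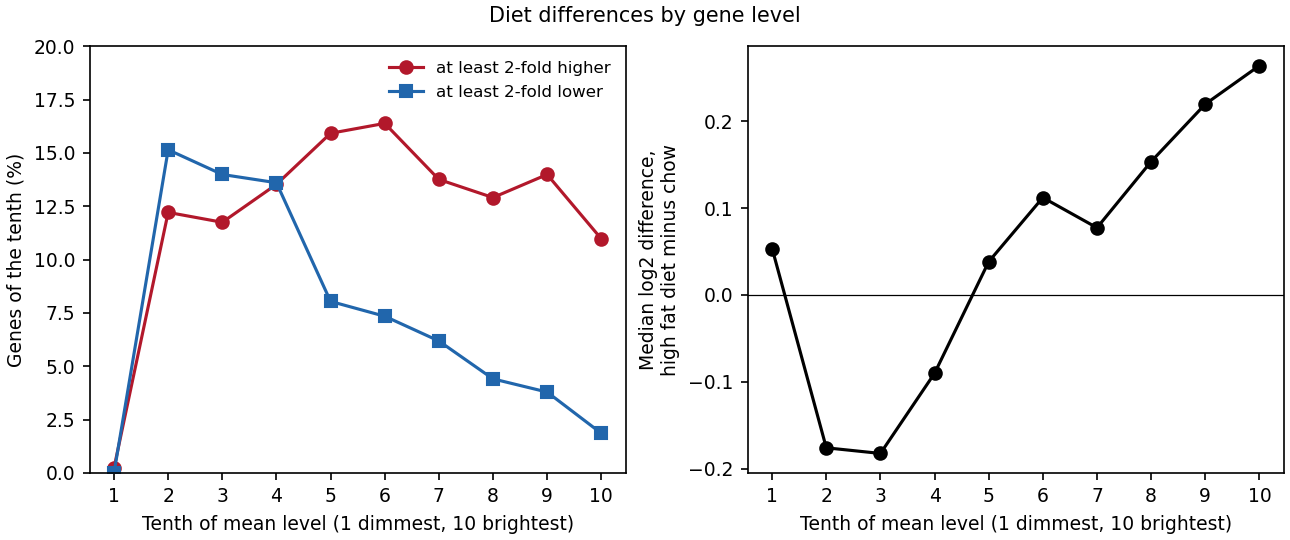
Genes were split into 10 equal groups by their mean level over the fat arrays (horizontal, 1 the dimmest and 10 the brightest). The left panel gives the percentage of genes higher by 2-fold or more (red) and lower (blue), and the right panel the median log2 difference, HFD minus chow. The share of lower genes is 15.1% in group 2 and 1.85% in group 10, and the medians lie between -0.18 and 0.26.

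The level of a gene mattered for how often it differed. In the dimmest of the 10 groups, where most values sit at the floor, 90.1% of genes lay within 1.5-fold. The share lower by 2-fold or more was 15.1% in group 2 and 1.85% in the brightest, while in groups 2 to 10 the share higher by 2-fold or more lay between 10.97% and 16.4%. The median difference was -0.18 in group 2 and 0.26 in the brightest.

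Probe sets of the same gene share the RNA, so their agreement bears on the probes and not on the mice. Of 442 higher genes with 2 or more probe sets 374 had all probe sets above 0 (84.6%), and 246 had all of them past 2-fold. Of 182 lower genes, 110 had all below 0 (60.4%), and 56 had all past 2-fold. Among genes at least 4-fold apart, agreement in sign was 106 of 116 on the higher side and 15 of 20 on the lower side. The lower calls therefore rested more often on 1 probe set out of several.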

How the data were processed

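Per the labels' protocols, RNA was isolated with a phenol reagent and columns and run on Affymetrix arrays. Each deposited intensity is 1 value per probe set and array on a linear scale, as the authors deposited it. Nothing used here states the software, background correction or normalization. The array medians differ, which quantile normalization of the deposited arrays together would not leave. The deposited fold changes were not used.

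Empty cells (176 on the HFD array and 271 on the chow array) were left out, values were floored at each array's 10th percentile and log2 was taken. A fold against a floored value is a lower bound, written "at least". Probe sets were named by gene ID (20834), symbol (42) or synonym (183) in a RefSeq table of GRCm38.p6. The file's own symbol was kept for 316, and the 769 with no gene and 482 with several genes were left out of the genes. Each gene was read by 1 probe set, that with the highest mean over the 4 arrays. The suffixes _s_at and _x_at mark probe sets that several transcripts may reach. Among the genes named here they read Trem2, Laptm5, Lipa, H2-K1, H2-D1, Ces1f, Dgat1, C1s1, Ccl27a, Col18a1, Dpyd, Elovl1, Eno1, Gpm6a, Ifi202b, Pira2, Prelp, Rrm2, Socs2, Socs3, Sox17, Tgfbi, Rac1, Tpi1, Acta2, Akt2, Hba-a1, Lamp2, Mgll and Xbp1.

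The 2 groups held 1 array each, so no test was run. Array number, and not counting error, limits the precision. The 68 lists (1323 genes measured of 1485) overlap in part. The members, lists and rules were chosen with earlier results of these data known. List counts run over all measured members, whatever their level. The genes named were the 30 highest and 30 lowest past the level filter, up to 6 members per list with the largest differences, members 2-fold against their list, members of symbol families past 2-fold and a fixed set. Others, named as markers or as contrasts within a pathway, were chosen after their values were seen. Some genes that the rules select are not reported here.

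Alternatives were a fold of 1.5 or 3, the level filter dropped or set at the 75th percentile, centring, quantile normalization, 16 added in place of the floor, the median over probe sets and every probe set past the fold. Choosing the probe set on the 2 fat arrays and leaving out the shared suffixes were added after seeing the data. The steps were tested on simulated data. Python 3.11.15, pandas 2.3.3, numpy 2.4.6 and matplotlib 3.10.9 were used.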

Additional observations from a re-analysis of the deposited data

Results flagged for a closer look

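Probe sets that name no gene, or several, were left out of the gene counts and still showed differences. Of 261 probe sets with no gene that passed the level filter, 40 were higher by 2-fold or more on HFD (15.3%) and 29 lower by 2-fold or more (11.1%). Of 256 with several genes, 61 were higher by 2-fold or more (23.8%) and 18 lower by 2-fold or more (7.03%). They have no replicate check, and which transcripts they read was not tested.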

How the results depend on the processing

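The main settings gave 1119 genes higher by 2-fold or more and 429 lower by 2-fold or more. A fold of 1.5 gave 2004 and 1037, and a fold of 3 gave 564 and 141. Without the level filter 1574 were higher and 962 lower, and a filter at the 75th percentile gave 665 and 211, with 3890 genes in place of 7183. Centring each array on its median gave 878 and 672, and quantile normalization 825 and 740. Adding 16 in place of the floor gave 1086 and 404, the median over probe sets 1283 and 465, and the rule that every probe set pass the fold 923 and 303. The alternatives added after seeing the data gave 1092 and 439 (probe set chosen on the fat arrays) and 1158 and 435 (no shared suffixes). Of the 30 lists with a median of at least 1.5-fold, none changed direction under the alternatives run on list medians. Quantile normalization brought 5 of them under 1.5-fold, among them the proton pump (0.56) and iron lists (0.30). Of 290 named genes past 2-fold, 26 came below it after quantile normalization, 19 after centring and 17 with the median over probe sets. Lpin2 (-0.52) and Col20a1 (-1.68) changed sign with the median over probe sets, and Cxcl12 (0.99) with the probe set chosen on the fat arrays. The cause was not tested. No paired analysis was possible because each group held 1 array. Values near the floor limit what dim genes can show, and values near the top of the scale what the brightest can.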

Other observations

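Several gene groups outside the comparisons above were also counted, and not all of them differed between the diets. In the list of scavenger and engulfment receptors 6 of 15 genes were higher by 2-fold or more on HFD and 0 lower. Stab2, a hyaluronan and phosphatidylserine receptor gene, read 934 on HFD and 147 on chow, the receptor kinase gene Axl 3616 on HFD and 1081 on chow and Msr1, a receptor for modified lipoproteins, 1026 on HFD and 371 on chow. Among integrin genes 8 of 20 were higher by 2-fold or more and 1 lower. Itgb2, the shared beta chain of leukocyte integrins, was 8.82-fold higher, 6218 on HFD and 705 on chow, and Itgb7, a beta chain of gut-homing lymphocytes, 2.58-fold higher.

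Fatty acid carriers of adipocytes differed little from chow, with 3 of 18 genes higher by 2-fold or more, 1 lower and a median of 0.13, which was -0.08 after centring. Got2, a mitochondrial aminotransferase gene also proposed as a fatty acid binder, was 2.74-fold higher, 1908 on HFD and 696 on chow. Slc27a1, a fatty acid transporter gene, was 1.497-fold higher. In the nuclear receptor symbol family (Nr), 0 of 23 measured genes were higher by 2-fold or more and 3 lower, among them Nr2f1, 3.33-fold lower, 225 on HFD and 749.9 on chow. Of 30 genes named Gpr, 8 were higher by 2-fold or more and 0 lower, such as the proton-sensing receptor gene Gpr65, 7.26-fold higher, 1517 on HFD and 209 on chow.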
